A study of Mus musculus with 10 samples.

Results

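The MHC class II genes followed here are 7 of the 31053 genes counted in single cells of cultured intestinal organoids and of colonic crypts from mice, and they were chosen by name. They comprise the beta and alpha chains of the I-A molecule (H2-Ab1 and H2-Aa), the beta chain of the I-E molecule (H2-Eb1), the invariant chain (Cd74), both subunits of the peptide editor H2-DM (H2-DMa and H2-DMb1) and the transcriptional co-activator of the whole set (Ciita). Of the 7 genes, 6 were tested, and these 6 were called higher in Hyper- than in ENR-organoids. Of all genes tested there, 22.9% were called in either direction, 18.2% higher and 4.75% lower. Ciita, Cd74 and H2-DMb1 passed the filter on low values through the Hyper-organoid libraries, so the count of 6 only describes the members. H2-Aa was below that filter and was not tested. H2-Ab1 showed the largest rise. Its partner chain H2-Aa and the invariant chain gave at most 31 UMIs (unique molecular identifiers, 1 per captured transcript) in any organoid library. In colonic crypts, both normal and after dextran sulfate sodium (DSS), the epithelial clusters instead held Cd74 as the most abundant member.

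An MHC class II molecule is a heterodimer of an alpha and a beta chain that carries peptides from the endosomal pathway to the cell surface for CD4+ T cells. The invariant chain binds new dimers, fills the groove and steers them to endosomes, where cathepsins trim it down to a short fragment that H2-DM exchanges for peptide. CIITA does not bind DNA itself but is recruited by RFX, CREB and NF-Y factors that sit on the X and Y boxes of class II promoters, and interferon gamma is the classical inducer of Ciita outside dendritic cells, macrophages and B cells. Intestinal epithelial cells express class II genes at low levels at rest and more strongly in inflammation.

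ENR-organoids (3 libraries) were grown from proximal small intestinal crypts of mice in medium with Noggin, R-Spondin 1 and EGF. The 3 libraries of Hyper-organoids came from cultures in LDN193189, GSK-3 Inhibitor XV, Pexmetinib, VPA (a histone deacetylase inhibitor), EPZ6438 (an EZH2 inhibitor), EGF, R-Spondin 1 conditioned medium and FGF2, and -VE-organoids (2 libraries) in the same medium lacking VPA and EPZ6438. The libraries were grouped into culture series 2, 6 and C by their names, since the labels name no series. Whether series 2 and 6 were separate cultures or different passages of 1 culture is not said. Series 2 and 6 each gave 1 library of each of the 3 groups, with the Hyper- and -VE-organoids derived from ENR-organoids. Series C gave 1 ENR- and 1 Hyper-organoid library from primary crypts and no -VE-organoid library. Libraries 1, 2 and 3 of a group stand for series 2, 6 and C; the ENR-organoids were at passages 2, 7 and 3, the Hyper-organoids at passages 1, 6 and 3 and the -VE-organoids at passages 1 and 6. The colon gave 1 library of crypts from normal mice and 1 from mice given DSS, which injures the colonic epithelium. Strain and age of the mice are not given in the labels, nor is it said that libraries of a group came from separate animals, so p-values measure only the spread between these libraries.

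The 8 organoid libraries held 22139 kept cells and between 89124015 and 170019527 UMIs each, and the colonic libraries held 1132 normal and 1933 DSS cells with 19906845 and 32397122 UMIs. Any pair of libraries shared at most 5 cell barcodes. The epithelial markers Epcam, Cdh1, Krt8, Krt18, Krt19, Vil1 and Cldn7 were all detected in the organoids, and Ptprc (CD45, carried by all leukocytes) was found in 3 of 22139 organoid cells.

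All members but Cd74 and Ciita lie on chromosome 17 of the mouse. On GRCm38 (GENCODE vM21), H2-DMa occupies chr17:34119541-34139101, H2-DMb1 chr17:34153072-34160230, H2-Ab1 chr17:34257689-34269419 and H2-Eb1 chr17:34305867-34316674, all on the plus strand, and H2-Aa chr17:34282744-34287823 on the minus strand. Ciita lies at chr16:10480059-10528418, also on the plus strand. Every member is annotated as protein-coding, and the values below count UMIs over the whole gene. H2-DMa overlaps Brd2 on the opposite strand, H2-Eb1 overlaps Gm20513 and Ciita overlaps Dexi. H2-DMb1 has a near-identical neighbour, H2-DMb2, so its count is uncertain where reads fit both.

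Promoter windows from RefSeq (GRCm38.p6, 250 bases before to 50 after the annotated start) were taken for 4 members: H2-Aa, H2-Eb1, H2-DMa and H2-DMb1. H2-Ab1 and Ciita had no window there, and Cd74 was left out of the search. The windows of these 4 members were searched on both strands for the letters CTNGNAAC (core of the X box, bound by RFX) and ATTGG (the Y box, bound by NF-Y). The 2 strings of letters do not overlap each other. These letters were picked after the H2-Aa and H2-Eb1 windows had been looked at. The X letters occurred in 13.2% of all 32851 windows and the Y letters in 37.4%, while the X letters followed on the same strand by the Y letters, 10 to 30 bases apart, occurred in 0.277%. The 3 windows of members that held the pair are shown. They are matches of letters, and whether any factor binds there was not tested. Capitals mark the X and Y letters of the pair, and further matches are left in lower case.
H2-Aa, chr17:34287774-34288073, minus strand: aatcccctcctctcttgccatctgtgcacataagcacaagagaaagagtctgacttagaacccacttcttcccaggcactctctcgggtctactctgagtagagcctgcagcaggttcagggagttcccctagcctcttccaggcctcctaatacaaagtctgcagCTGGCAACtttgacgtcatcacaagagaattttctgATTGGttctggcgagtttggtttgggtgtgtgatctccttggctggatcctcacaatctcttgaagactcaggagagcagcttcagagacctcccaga
H2-Eb1, chr17:34305617-34305916, plus strand: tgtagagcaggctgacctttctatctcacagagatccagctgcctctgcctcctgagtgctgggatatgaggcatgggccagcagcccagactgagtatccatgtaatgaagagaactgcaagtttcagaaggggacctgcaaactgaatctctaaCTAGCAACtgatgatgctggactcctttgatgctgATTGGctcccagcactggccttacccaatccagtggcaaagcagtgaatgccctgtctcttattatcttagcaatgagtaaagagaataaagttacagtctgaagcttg
H2-DMb1, chr17:34152941-34153240, plus strand: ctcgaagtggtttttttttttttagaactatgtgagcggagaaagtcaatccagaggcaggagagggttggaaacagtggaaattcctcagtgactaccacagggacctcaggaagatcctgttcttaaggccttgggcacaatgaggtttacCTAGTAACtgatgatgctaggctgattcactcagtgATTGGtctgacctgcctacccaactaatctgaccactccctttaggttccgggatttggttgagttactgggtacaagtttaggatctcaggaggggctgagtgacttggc
The X letters began 84 bases before the start in H2-Aa, 94 in H2-Eb1 and 97 in H2-DMb1, and the gap to the Y letters was 28, 27 and 28 bases. Neither of the 2 windows of H2-DMa held the pair. H2-Aa, H2-Eb1 and H2-DMb1 share this layout, but for H2-Aa and H2-Eb1 it follows from how the letters were picked. The window of H2-Ob, a class II gene that is not a member, held the pair too, with a gap of 25 bases. The members' counts in organoids are given below.

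The I-A beta chain gene H2-Ab1 showed the widest difference of the members between Hyper- and ENR-organoids. Its UMIs numbered 62, 49 and 50 in the ENR-, 135 and 60 in the -VE- and 3936, 2198 and 2406 in the Hyper-organoid libraries. Scaled to 1000000 UMIs of the library (CPM), these were 0.638, 0.399 and 0.561 in ENR-, 1.11 and 0.353 in -VE- and 28.4, 15.5 and 26.7 in Hyper-organoids. Every Hyper-organoid library lay far above all others, and the -VE-organoid libraries lay on either side of the ENR-organoid ones. With edgeR's quasi-likelihood test, the log2 fold change between Hyper- and ENR-organoids was 5.35 (SE 0.45, adjusted p = 3.41e-05), a 40.8-fold difference, and against -VE-organoids it was 4.91 (SE 0.51, adjusted p = 2.31e-04). The latter value was 5.93 without -VE-organoid library 1 and 4.28 without library 2, and was called in both cases.

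UMIs of H2-Ab1 were spread over many Hyper-organoid cells. It had at least 1 UMI in 56.8%, 38.7% and 57.0% of the cells of the 3 Hyper-organoid libraries. In ENR-organoids the share was 2.06%, 1.58% and 1.70%, and in -VE-organoids 4.18% and 1.30%. Each 95% Clopper-Pearson interval covers counting error only; for the first Hyper-organoid library it ran from 54.9% to 58.6% (1596 of 2812 cells). After each cell was thinned to 10000 UMIs, the mean share was 19.4% ± 4.51 (SD, n = 3) in Hyper-, 0.637% ± 0.172 (SD, n = 3) in ENR- and 1.02% ± 0.838 (SD, n = 2) in -VE-organoids. A positive Hyper-organoid cell held a median of 1 or 2 H2-Ab1 UMIs and at most 21. No organoid class is known to lack the gene, so the share that free RNA gives was not tested.

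The partner chain H2-Aa, without which the I-A beta chain forms no I-A dimer, was almost absent. Its UMIs numbered 0, 0 and 2 in the ENR-, 1 and 0 in the -VE- and 4, 8 and 3 in the Hyper-organoid libraries. These counts were below the filter on low values, and the 15 UMIs of Hyper- against 2 of ENR-organoids gave a ratio of CPM of 6.25 with an exact 95% counting interval from 1.45 to 56.4. With no such filter the log2 fold change was 2.32 (SE 1.09, adjusted p = 0.122 with edgeR). In Hyper-organoids, 2, 5 and 3 cells per library held both H2-Ab1 and H2-Aa, of 1596, 1363 and 1130 cells with H2-Ab1.

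H2-Eb1, the I-E beta chain, gave 21, 22 and 17 UMIs in ENR-, 26 and 33 in -VE- and 49, 40 and 81 in Hyper-organoid libraries. The Hyper-organoid values did not overlap the others, and Hyper-organoid library 3 stood highest at 0.897 CPM against 0.354 and 0.281 CPM in the other two. The log2 fold change to ENR-organoids was 1.24 (SE 0.45, adjusted p = 0.0445 with edgeR). It fell below the threshold when any ENR-organoid library, either -VE-organoid library or Hyper-organoid library 3 was left out, and was 0.57 (adjusted p = 0.104) without the last. Against -VE-organoids it was 1.17 (SE 0.50, adjusted p = 0.0882) and was not called. The pseudogene of the I-E alpha chain, H2-Ea-ps, was not analysed here.

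Cd74, the chaperone of all class II dimers, stayed close to its detection limit in every organoid. It gave 5, 7 and 4 UMIs in ENR-, 1 and 11 in -VE- and 16, 28 and 31 in Hyper-organoid libraries, or a mean of 0.0511 CPM ± 0.00604 (SD, n = 3) in ENR- and 0.219 CPM ± 0.115 (SD, n = 3) in Hyper-organoids. All Hyper-organoid libraries were above the others, by few UMIs. The log2 fold change was 1.91 (SE 0.62, adjusted p = 0.0289 with edgeR) against ENR- and 2.28 (SE 0.70, adjusted p = 0.0284) against -VE-organoids. The first call was lost without any 1 of the ENR-organoid libraries or of Hyper-organoid libraries 2 and 3. The second was lost without -VE-organoid library 1 (1.59, adjusted p = 0.115) or Hyper-organoid library 3 (1.83, adjusted p = 0.0644), and its log2 fold change was 4.42 without -VE-organoid library 2. Both H2-Ab1 and Cd74 were found in 8, 7 and 14 Hyper-organoid cells per library, and 1 cell each in libraries 2 and 3 held H2-Ab1, H2-Aa and Cd74 together.

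Both H2-DM subunit genes rose in Hyper-organoids. H2-DMa was the most abundant member in ENR-organoids, at 1.16, 1.12 and 1.55 CPM, with 0.977 and 0.912 CPM in -VE- and 5.75, 6.46 and 7.13 CPM in Hyper-organoids. The groups did not overlap, and the log2 fold change was 2.21 (SE 0.17, adjusted p = 2.55e-05 with edgeR) against ENR- and 2.64 (SE 0.21, adjusted p = 7.47e-05) against -VE-organoids. Its share of cells averaged 23.6% ± 1.84 (SD, n = 3) in Hyper- and 5.23% ± 0.347 (SD, n = 3) in ENR-organoids. H2-DMb1 was rarer, with 4, 9 and 6 UMIs in ENR-, 9 and 17 in -VE- and 50, 31 and 35 in Hyper-organoid libraries. Its log2 fold change was 2.25 (SE 0.38, adjusted p = 0.00128) against ENR- and 1.72 (SE 0.40, adjusted p = 0.00865) against -VE-organoids. The latter call was lost without -VE-organoid library 1 (1.55, adjusted p = 0.0584), and in stem class cells alone neither was made (adjusted p = 0.219 and 0.150).

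Ciita transcripts were scarce but higher in each Hyper-organoid library. There were 0, 2 and 1 UMIs in the ENR-, 0 and 1 in the -VE- and 12, 22 and 22 in the Hyper-organoid libraries. The 56 UMIs of Hyper- against 3 of ENR-organoids gave a ratio of CPM of 15.6 with an exact 95% counting interval from 5.06 to 77.7. The test across libraries gave a log2 fold change of 3.78 (SE 0.77, adjusted p = 0.00337 with edgeR) against ENR- and 5.05 (SE 0.98, adjusted p = 0.00382) against -VE-organoids. With so few UMIs single libraries moved these values: the first was 4.51 without ENR-organoid library 2, and the second 4.42 and 7.13 without -VE-organoid library 1 or 2, each still called. Ciita was detected in 11, 20 and 21 cells of the Hyper-organoid libraries, so that its level in single cells could not be compared with H2-Ab1 at this depth.

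**Figure D1:**
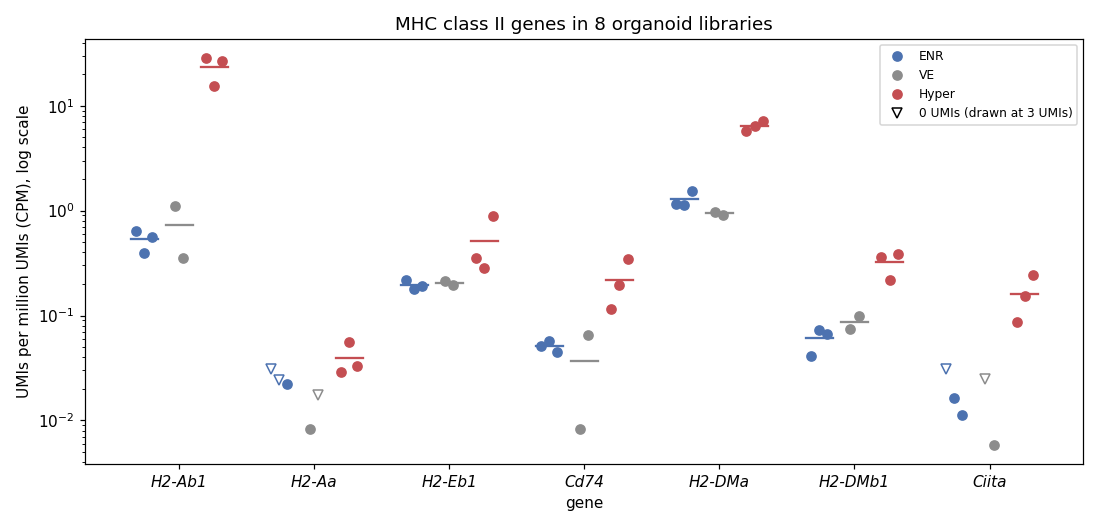
CPM of each of the 7 class II genes (y axis, log scale) in the ENR-, -VE- (VE) and Hyper-organoid libraries; each point is 1 library, bars are group means, and open triangles mark libraries with 0 UMIs, drawn at the level of 3 UMIs. H2-Ab1 stands between 15.5 and 28.4 CPM in Hyper-organoids, above all other libraries, and H2-Aa and Cd74 stay below 0.343 CPM or at that level in every library.

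Of the 6 members tested, 6 were called higher in Hyper- than in ENR-organoids (adjusted p under 0.05 and at least 2-fold), where 22.9% of all 16037 genes tested were called in either direction, 18.2% higher and 4.75% lower. Against -VE-organoids, 5 of 6 were called higher, beside 18.6% of all genes called, 16.1% higher and 2.51% lower. Without -VE-organoid library 1 the latter count was 3 of 6, and it was 4 to 6 without any other single library. These comparisons share the Hyper-organoid libraries. H2-Aa was below the filter on low values, and Ciita, Cd74 and H2-DMb1 passed it through the Hyper-organoid libraries, so these counts describe the members and do not test them as a group. The median log2 fold change of the 6 tested members was 2.23 and 2.46, and that of all genes tested -0.0073 and 0.014. Between -VE- and ENR-organoids, 0 of 6 members were called, beside 2.55% of all genes, 1.35% higher and 1.2% lower (409 genes with edgeR, 562 with DESeq2, and 3847 at an unadjusted p under 0.05). The H2-Ab1 difference there was 0.44 (SE 0.50, adjusted p = 0.640 with edgeR). H2-DMa differed by -0.43 (SE 0.20, adjusted p = 0.231) and H2-DMb1 by 0.53 (SE 0.45, adjusted p = 0.523 with edgeR).

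Some genes of other cell types moved with the media, and their part in the class II values was not tested. Of 5 leukocyte markers, Ptprc was at 0 in all Hyper-organoid libraries, Cd52 and Cd53 gave 0 to 4 UMIs, Laptm5 fell and Coro1a rose with 188, 77 and 80 UMIs against 7, 4 and 3 in ENR-organoids. The list summed to between 0.598 and 1.46 CPM in Hyper- and between 0.146 and 0.334 CPM in ENR-organoids. Of 7 dendritic cell markers, Zbtb46 alone passed the filter on low values and rose, while Itgax gave 0, 1 and 0 and Flt3 1, 2 and 0 UMIs in Hyper-organoids. That list summed to between 0.432 and 0.598 CPM in Hyper- and between 0.0823 and 0.157 CPM in ENR-organoids. Of 5 B cell markers, Cd79b fell, Cd79a and Ebf1 were not called (log2 fold changes 0.37 and 0.52), and Ms4a1 gave 1, 0 and 0 UMIs in the Hyper-organoid libraries. The B cell list summed to between 0.788 and 1.52 CPM in Hyper- and between 3.27 and 4.79 CPM in ENR-organoids. Of 9 macrophage and monocyte markers, Adgre1 was at 0 and C1qb gave 1, 0 and 0 UMIs in Hyper-organoids, whereas C1qa gave 6, 35 and 41 UMIs against 5, 3 and 12 in ENR-organoids (log2 fold change 1.70, adjusted p = 0.132 with edgeR), and against -VE-organoids its log2 fold change was 2.83 (adjusted p = 0.0603). This list summed to between 8.57 and 10.5 CPM in Hyper- and between 8.95 and 10.0 CPM in ENR-organoids. The plasma cell marker Mzb1 rose by 2.76 on the log2 scale (27, 23 and 15 UMIs against 5, 1 and 1) while Sdc1 (0.89) and Xbp1 (0.07) were not called and Jchain gave at most 10 UMIs. The plasma cell list summed to between 291 and 336 CPM in Hyper- and between 206 and 210.4 CPM in ENR-organoids. Of 6 stromal markers Col1a1 rose by 3.11 (64, 69 and 31 UMIs against 6, 6 and 2) and Pecam1 was not called (0.53), and the list summed to between 0.864 and 1.29 CPM in Hyper- and between 0.348 and 0.545 CPM in ENR-organoids. The 6 T cell markers summed to between 0.211 and 0.366 CPM in Hyper- and between 0.0411 and 0.0895 CPM in ENR-organoids. The marker lists of other cell types thus held genes that rose, genes that fell and genes at 0 in the libraries with the most H2-Ab1.

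The make-up of class II transcripts differed between organoids and colonic epithelium. A 3′ library counts 1 UMI per captured molecule whatever its length, so shares of UMIs compare genes without correction for length. H2-Ab1 made up 75.4% of the 11331 member UMIs of Hyper-organoids, H2-DMa 20.8%, Cd74 0.662% and H2-Aa 0.132%. In ENR-organoids H2-DMa made up 59.8% and H2-Ab1 24.8% of 650 UMIs. In the epithelial clusters of DSS crypts Cd74 made up 69.5% and H2-Ab1 8.96% of 6973 UMIs, and in those of normal crypts 53.9% and 13.9% of 849 UMIs. For every 100 H2-Ab1 UMIs there were 0.878 Cd74 UMIs in Hyper-organoids, 776 in DSS epithelium, 991 in the DSS cells of cluster 8, led by B cell genes, and 669 in those of cluster 21, led by macrophage genes. Colonic epithelium and leukocytes thus held several Cd74 UMIs to each H2-Ab1 UMI and Hyper-organoids held about 1 to 100. Organoids and crypts differ in gut segment and in handling, and these cannot be told apart from the make-up.

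**Figure D2:**
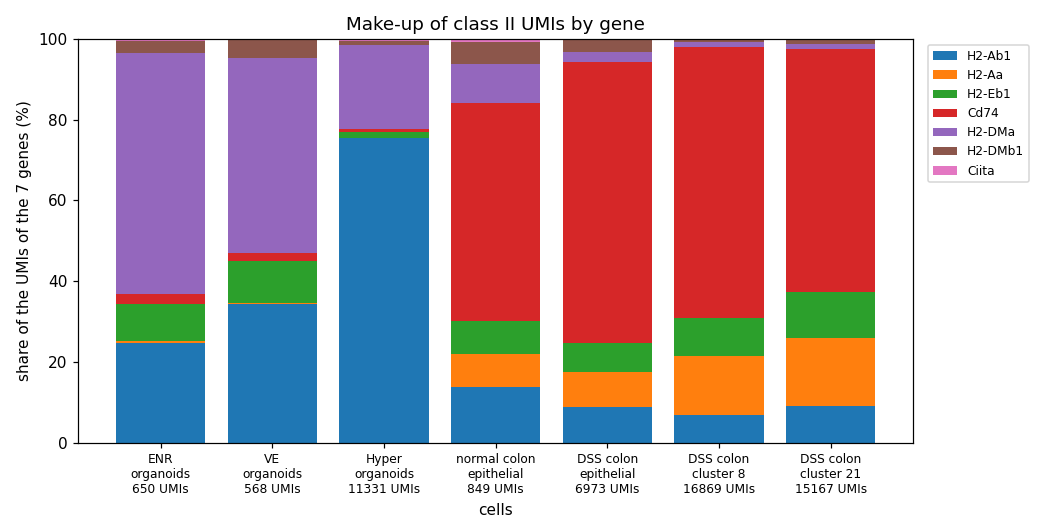
Share of the UMIs of the 7 genes taken by each gene (stacked bars, percent from 0 to 100) in the organoid groups, colonic epithelium and clusters 8 and 21, with the number of member UMIs under each bar. H2-Ab1 takes 75.4% in Hyper-organoids, whereas Cd74 takes 69.5% in DSS epithelium and 67.2% in cluster 8.

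Among the annotated cell classes of the organoids, H2-Ab1 was highest in the EE class and second in the GC class in all 8 libraries, of 4 to 7 classes with at least 20 cells. The EE class carried the enteroendocrine markers and the GC class the goblet markers at their highest summed level of all classes. In ENR-organoids, EE cells held 10.9, 8.44 and 12.3 CPM of H2-Ab1, against 0.50, 0.305 and 0.431 CPM in all other cells of the same library, between 21.7 and 28.6 times as much. In -VE-organoids they held 9.94 and 3.96 CPM against 0.982 and 0.310 CPM. In Hyper-organoids EE cells held 43.7, 53.8 and 57.6 CPM against 28.1, 14.9 and 26.0 CPM, between 1.55 and 3.62 times as much. The EE class was small, with 61 to 107 cells per library. GC cells held 3.70, 1.37 and 2.91 CPM in ENR-, 1.91 and 1.12 CPM in -VE- and 39.7, 27.2 and 38.9 CPM in Hyper-organoids.

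Stem (SC) and transit amplifying (TA) cells made up most Hyper-organoid cells, and their H2-Ab1 level was low in ENR-organoids. SC cells held 0.542, 0.243 and 0.131 CPM of H2-Ab1 in ENR-, 0.936 and 0.187 CPM in -VE- and 33.4, 16.9 and 31.4 CPM in Hyper-organoids. TA cells held 0.431, 0.286 and 0.362 CPM in ENR- and 23.7, 12.6 and 20.4 CPM in Hyper-organoids. The classes SC and TA were close in their summed stem marker level (1496 and 1491 CPM) and apart in that of the TA markers (1297 and 2988 CPM). Enterocyte progenitors (EP), 486 to 809 cells in each ENR-organoid library, numbered 2 or 3 cells in each Hyper-organoid library, and their H2-Ab1 level in ENR-organoids was 0.201, 0.119 and 0.118 CPM.

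Within each class large enough to test, H2-Ab1 rose from ENR- to Hyper-organoids. The deposited annotation gives organoid cells a class and no cluster number. The study placed SC and TA cells of Hyper- and ENR-organoids in separate clusters, so the folds in these classes compare cells that share a class name, not a cluster. The log2 fold change was 6.23 (SE 0.57) in SC, 5.62 (SE 0.48) in TA, 3.70 (SE 0.30) in GC and 2.38 (SE 0.27) in EE cells, with adjusted p between 6.84e-06 and 2.64e-04 by edgeR. H2-DMa was called in SC (2.02), TA (2.52) and GC cells (1.79), and H2-DMb1 (2.05) and H2-Eb1 (1.45) in TA cells. The H2-Eb1 call in TA cells was lost without any 1 of the ENR-organoid libraries or Hyper-organoid library 3, and that of H2-DMa in GC cells without ENR-organoid library 2. Single libraries also moved H2-Ab1 in SC cells (6.97 without ENR-organoid library 1), H2-DMb1 in TA cells (2.64 without ENR-organoid library 2) and H2-DMa in GC cells (2.52 without ENR-organoid library 1), all still called. Thus 2 of 3 tested members were called in SC, 4 of 5 in TA, 2 of 2 in GC and 1 of 1 in EE cells, beside 18%, 20.9%, 13.3% and 7.4% of all genes tested there. Members passed the filter in a class mostly through the Hyper-organoid libraries, so that these counts leave out the rest. Cd74 in TA cells gave 2.43 (adjusted p = 0.0871), which became 2.36 (adjusted p = 0.0410) when the fit took the culture series as its block.

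The rise of H2-Ab1 differed between classes. This was tested in a separate model for SC and each other class, with the library as a block. The test was chosen after these values had been seen. The log2 fold change between Hyper- and ENR-organoids differed between EE and SC cells by -3.83 (SE 0.61, adjusted p = 7.61e-04 with edgeR), where 7.38% of 12684 genes were called. Between GC and SC cells it differed by -2.60 (SE 0.47, adjusted p = 0.00170), where 3.95% of 12093 genes were called. The difference between TA and SC cells was -0.63 (SE 0.45, adjusted p = 0.400), where 1.11% of genes were called. The classes EE and GC, higher in ENR-organoids, showed the smaller fold, while their Hyper-organoid levels remained above those of SC and TA cells. A fold contains the ENR-organoid level, so this relation is partly built in. That level rested on few H2-Ab1 UMIs over the 3 ENR-organoid libraries: 11 in 868 SC cells, 30 in 379 GC cells and 38 in 212 EE cells.

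**Figure D3:**
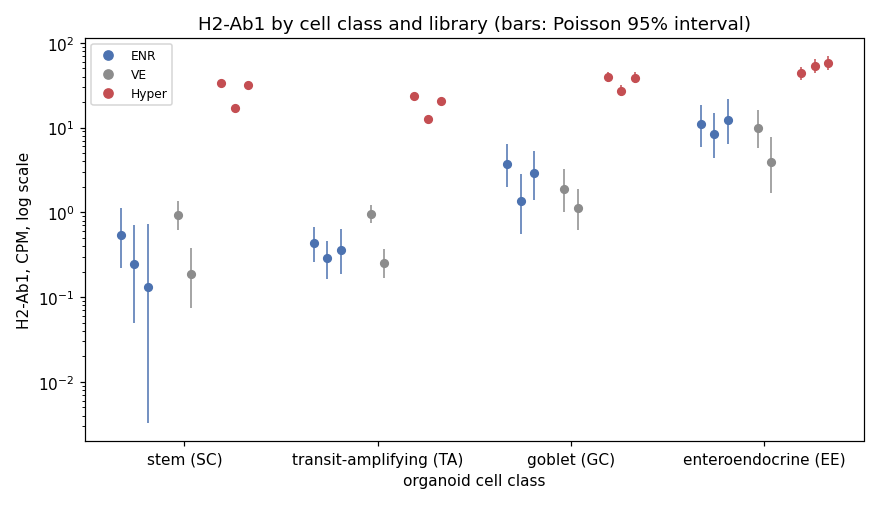
CPM of H2-Ab1 (log axis) by annotated class and organoid library, for the 4 classes with at least 20 cells in every library; each point is 1 library and bars are exact 95% Poisson intervals. EE cells are highest in all 8 libraries, and SC cells move from between 0.131 and 0.542 CPM in ENR-organoids to between 16.9 and 33.4 CPM in Hyper-organoids.

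Genes that act before and after Ciita were read from a list of 35 class II pathway genes, of which 26 were tested. Between Hyper- and ENR-organoids 6 (23.1%) were called higher and 2 (7.69%) lower, beside 18.2% and 4.75% of all genes tested. None of the 7 RFX, CREB and NF-Y genes reached 2-fold. Of them 3 were lower at an adjusted p under 0.05 with edgeR, namely Rfxank (-0.48, adjusted p = 0.0171), Nfyc (-0.34, adjusted p = 6.99e-04) and Creb1 (-0.24, adjusted p = 0.0110), and 0 were higher. Rfx5, which binds the X box, differed by -0.10 (adjusted p = 0.429 with edgeR). Among 8 genes from the interferon gamma receptor to Ciita, Irf1, an inducer of Ciita, rose by 1.5 on the log2 scale (SE 0.33, adjusted p = 0.00467). Its level was 5.87, 5.59 and 4.97 CPM in ENR-, 8.12 and 11.7 CPM in -VE- and 8.51, 21.6 and 20.7 CPM in Hyper-organoids. Against -VE-organoids Irf1 was not called (0.64, adjusted p = 0.177), and Hyper-organoid library 1 lay within the -VE-organoid range. Irf2, a relative that competes with Irf1 for the same sites at many genes, fell by 1.34 on the log2 scale. The receptor chain Ifngr1 was lower by a little under 2-fold (log2 fold change -0.99, adjusted p = 1.19e-05), at 107, 113 and 104 CPM in ENR- and 59.6, 54.9 and 64.0 CPM in Hyper-organoids. Ifngr1 was thus lower, and Irf1 higher, in the same libraries.

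Of the 5 lysosomal processing genes tested, Ctsl (cathepsin L) rose by 2.48 and Lgmn (legumain) by 2.17 on the log2 scale. Ctsl stood at 20.0, 17.0 and 18.1 CPM in ENR-, 30.4 and 38.1 CPM in -VE- and 99.7, 112 and 124 CPM in Hyper-organoids. Ctss (cathepsin S), which completes invariant chain cleavage in B cells and dendritic cells, fell by 1.03 on the log2 scale, from 11.8, 12.2 and 12.9 CPM in ENR- to 4.31, 7.19 and 8.21 CPM in Hyper-organoids. Cathepsin L does that step in thymic epithelium. The list also held costimulatory genes and the co-inhibitory Cd274 (PD-L1) and Pdcd1lg2 (PD-L2), of which 4 were tested and 2 called. Cd40 rose by 3.90 and Cd274 by 2.44, while Icosl (-0.16, adjusted p = 0.343 with edgeR) and Pdcd1lg2 (2.47, adjusted p = 0.0635) were not called. The level of Cd40 was 0.0720, 0.163 and 0.224 CPM in ENR- and 2.79, 2.34 and 2.42 CPM in Hyper-organoids. The costimulatory ligands Cd80 and Cd86 gave at most 9 UMIs in any organoid library.

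Nlrc5, the co-activator of class I genes and a relative of Ciita, had 0 UMIs in every ENR-organoid library, 2 and 0 in -VE- and 24, 7 and 12 in Hyper-organoid libraries. Against a floor of 3 UMIs over the ENR-organoid group, the Hyper-organoid group was at least 11.9-fold higher. The other class II genes H2-DMb2, H2-Oa, H2-Ob and H2-Eb2 gave 0 to 3 UMIs in each organoid library and were not tested. Against -VE-organoids 6 genes of the list were called higher (Nlrc5, Cd274, Cd40, Ctsl, Lgmn and Socs1) and 0 lower, beside 16.1% and 2.51% of all genes tested. Between -VE- and ENR-organoids 0 of the list were called, beside 2.55% of all genes.

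**Figure D4:**
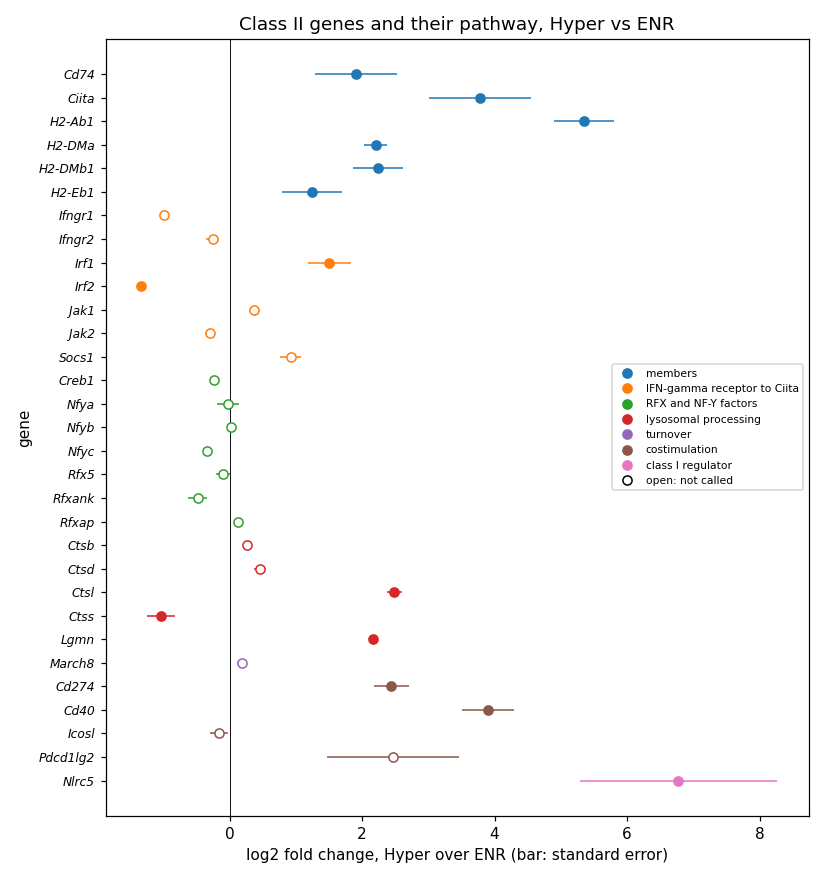
Log2 fold change of Hyper- over ENR-organoids (points, with standard errors) for the 6 tested members and tested genes of the pathway list, coloured by role; filled points were called, and the value of Nlrc5 rests on ENR-organoid libraries at 0 UMIs. All 6 members lie right of 0, with H2-Ab1 at 5.35, and the RFX, CREB and NF-Y genes lie between -0.48 and 0.13. The role named costimulation includes the co-inhibitory Cd274 and Pdcd1lg2.

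The genes next to H2-Ab1 did not all move with it. Within 200 kb of H2-Ab1, 31 genes are annotated, and of 14 tested 6 were called higher and 2 lower in Hyper- than in ENR-organoids, with a median log2 fold change of 0.82, beside 18.2% and 4.75% of all genes tested. The higher ones comprised the members H2-DMa, H2-DMb1 and H2-Eb1, the immunoproteasome subunit Psmb8 (2.52), BC051142 (1.38) and Col11a2 (1.21). The other immunoproteasome subunit there, Psmb9, differed by 0.04 (adjusted p = 0.780), and the peptide transporter genes Tap1 by 0.44 (adjusted p = 0.00590) and Tap2 by 0.99 (adjusted p = 1.70e-04), short of 2-fold. Against -VE-organoids Psmb9 differed by 0.62 (adjusted p = 0.00784) and Tap1 by 0.71 (adjusted p = 0.00166), and Tap2 was called higher (1.40, adjusted p = 1.47e-04). Btnl1 and Btnl2, of the butyrophilin-like family, fell by 2.53 and 3.02 on the log2 scale. The stretch from H2-DMa to H2-Eb1 begins and ends at members that were called, and H2-DMb1 and H2-Ab1 lie within it. Its 8 tested genes had log2 fold changes above 0 against ENR-organoids, from 0.04 to 5.35, beside a median of -0.0073 over all genes tested. With such ends this count describes the stretch only. Outside it Brd2, which overlaps H2-DMa, differed by -0.24, Btnl4 by -0.37 and BC051537 by 0.66, none of them called.

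In colonic crypts the deposited annotation held 25 clusters. A cluster was taken as leukocyte where over 50% of its cells had a Ptprc UMI and as epithelial where at most 50% did and over 50% had an Epcam UMI. This gave 18 epithelial clusters (907 normal and 1481 DSS cells), 6 leukocyte clusters (219 and 445 cells) and 1 unassigned cluster led by mast cell proteases. By that rule cluster 18, led by the stromal genes Dcn and Col3a1, counts among the leukocyte clusters, and cluster 22, led by the neutrophil granule genes Camp and Ngp, among the epithelial ones. With 1 library per group no test was possible, and differences between the colonic libraries compare those libraries. Their intervals cover counting error only.

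In both libraries most class II UMIs lay outside the epithelium. Leukocyte clusters held 58.1% of the members' UMIs in normal and 82.2% in DSS crypts, with 19.3% and 23.02% of the cells. Cluster 8, led by Igha, Cd79a and Ebf1, held 42.9% of the DSS class II UMIs in 109 cells, and cluster 21, led by Apoe, C1qa and C1qb, held 38.6% in 20 cells. In DSS crypts Cd74 reached 24007 CPM (95% Poisson interval 23567 to 24453) in cluster 8 and 48687 CPM (47693 to 49696) in cluster 21. Class II genes are among the leading genes of both clusters, so these levels describe them and are no finding. The normal library held 7 cells of cluster 8 and 1 of cluster 21, and these 8 cells carried 698 and 439 of its class II UMIs.

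Epithelial clusters held more class II transcripts in the DSS than in the normal library, and Cd74 was also higher there in clusters 0 and 11, led by T cell receptor and cytotoxic genes. Cd74 stood at 24.0 CPM (95% Poisson interval 21.9 to 26.3) in normal and 159 CPM (155 to 164) in DSS epithelium, a 6.63-fold difference. H2-Aa stood at 3.56 and 19.6 CPM, H2-Ab1 at 6.18 and 20.5 CPM and H2-Eb1 at 3.72 and 16.3 CPM. H2-DMb1 stood at 2.41 and 6.54 CPM and H2-DMa at 4.24 and 5.91 CPM, the smallest ratio of the 7 genes (1.39). The intervals of H2-DMa, 3.37 to 5.28 and 5.08 to 6.84 CPM, overlapped, and those of Cd74, H2-Aa, H2-Ab1, H2-Eb1 and H2-DMb1 did not. Ciita gave 7 and 28 UMIs, or 0.367 CPM (0.147 to 0.756) and 0.920 CPM (0.611 to 1.33), with overlapping intervals. The alpha and beta chains of I-A were thus near each other in level in DSS epithelium, unlike in Hyper-organoids.

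The share of epithelial cells with a Cd74 UMI was 8.71% (95% Clopper-Pearson interval 6.96 to 10.7) in normal and 26.2% (24.0 to 28.5) in DSS crypts. For comparison, T cells of mice lack class II dimers, and in clusters 0 and 11 the share was 1.5% in normal and 12.9% in DSS crypts at a median of 3544 and 3704 UMIs per cell against 21938 and 20991 in epithelium. Thinned to 2000 UMIs, it was 3.48% and 9.86% in epithelium against 1.05% and 8.70% in clusters 0 and 11. At that depth the DSS epithelium was little above the cells that should lack the gene. A fixed amount of free RNA per cell would weigh more in the smaller cells of clusters 0 and 11, in CPM too. The comparison therefore sets no background level for epithelium, and single cells with 1 UMI cannot be read as expressing the gene. Unthinned, 1481 DSS epithelial cells held 4847 Cd74, 625 H2-Ab1 and 597 H2-Aa UMIs. Clusters 0 and 11, with 159 and 58 DSS cells, held 41, 15 and 13. The Cd74 level in clusters 0 and 11 was 6.86 CPM (2.23 to 16.0, 5 UMIs) in normal and 48.7 CPM (34.9 to 66.0, 41 UMIs) in DSS crypts, a 7.09-fold difference beside the 6.63-fold one in epithelium. In DSS crypts these clusters held 17.8 CPM (9.96 to 29.4) of H2-Ab1 and 15.4 CPM (8.21 to 26.4) of H2-Aa, ranges that include the epithelial 20.5 and 19.6 CPM. H2-DMa was higher in clusters 0 and 11 than in epithelium, at 30.2 CPM (18.9 to 45.7) in normal and 30.9 CPM (20.2 to 45.2) in DSS crypts. The epithelial Cd74 level of 159 CPM lay above the interval of clusters 0 and 11. The share of the epithelial UMIs that came from free RNA was not tested.

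The epithelial Cd74 UMIs sat in few cells. Epithelial cells with at least 10 Cd74 UMIs numbered 13 of 907 (1.43%) in normal and 76 of 1481 (5.13%) in DSS crypts, and held 68.3% and 85.4% of the epithelial Cd74 UMIs. In these 76 DSS cells the median Epcam count was 61 UMIs, against 43 in cells with no Cd74 UMI, at a median of 26896 and 19951 UMIs per cell. Of the 76, 9 (11.8%) held a UMI of Ptprc or of a B cell or C1q gene and 6 held at least 2 of these genes, against 2.10% with any in cells with no Cd74 UMI. H2-Ab1 was found in 85.5% of the 76, against 3.75% of the DSS epithelial cells with no Cd74 UMI, and H2-Aa in 73.7%. Cd74, H2-Aa, H2-Ab1 and H2-Eb1 were all found in 45 of them, and Ciita in 17. Doublets were not called here.

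By cluster, the DSS epithelium varied widely. Cd74 stood at 690 CPM in the DSS cells of cluster 13 (led by the proliferation genes Top2a and Mki67), at 455 CPM in cluster 9 (led by Ido1 and Clu) and at 278 CPM in cluster 4 (led by Adh1 and Nox1), and at 17.2 CPM in cluster 1 (led by Ces1g). Clusters 9 and 4 held 2 and 11 normal cells, so that the cluster and the library cannot be told apart there. Of the 5 epithelial clusters with at least 20 cells in both libraries, Cd74 was higher in DSS in 4. Normal and DSS cells held 45.4 and 690 CPM in cluster 13, 26.0 and 97.6 CPM in cluster 5 (led by Spink4 and Muc2), 7.40 and 45.5 CPM in cluster 6 and 7.83 and 17.2 CPM in cluster 1. Cluster 2 was led by Ccl21a, Sox4 and Cdk6, with the stem cell markers Ascl2 and Cd44 further down its leading genes. In cluster 2 Cd74 was at 68.3 CPM (58.3 to 79.4) in normal and 43.8 CPM (37.0 to 51.4) in DSS crypts. In the 162 of 168 DSS cells of cluster 2 with no leukocyte marker it was 22.9 CPM, from 74 of the 150 Cd74 UMIs. The normal cells were not filtered in this way, so 22.9 CPM has no like value beside it. H2-Ab1 in cluster 2 was 14.6 and 3.50 CPM and H2-Aa 7.72 and 1.46 CPM, in the same direction. Over the same 5 clusters H2-Ab1 was lower in DSS in 2, with 7.40 and 6.84 CPM in cluster 6. H2-DMa was lower in DSS in 3, with 7.01 and 4.89 CPM in cluster 1, 5.69 and 3.50 CPM in cluster 2 and 8.75 and 3.57 CPM in cluster 6, from 12 to 27 UMIs each. Among normal clusters with at least 20 cells, Cd74 was highest in cluster 12 (106 CPM) and was at 0 in cluster 19 (led by Clca1 and Ang4). The leading genes of cluster 12, with 93 normal cells and 1 DSS cell, included the interferon-response genes Slfn4, Ifit1bl1, Isg15 and Ifit1 and the colonocyte markers Aqp8 and Car4. Cluster 3, with 274 normal cells, was led by the interferon-response genes Isg15, Oasl2, Ifi27l2a and Ifit1, and its Cd74 level was lower. The median cell held 5883 UMIs in cluster 12 and 22403 in cluster 3. A link between these genes and Cd74 was not tested.

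Cluster 13 held part of its class II transcripts in cells with leukocyte markers. In its DSS part, 2 of 54 cells carried at least 2 leukocyte markers and held 296 of the 904 Cd74 UMIs (32.7%), with a median of 1 Epcam UMI against 64.5 in cells with none. In the cells with none, Cd74 was 477 CPM. In cluster 5, 1 of 150 DSS cells carried at least 2 leukocyte markers and held 79 of the 337 Cd74 UMIs (23.4%). Its cells with none held 78.1 CPM. In clusters 4 and 9, cells with at least 2 such markers held 4.10% and 2.41% of the Cd74 UMIs. For every 1000 Cd74 UMIs there were 58.6 Cd79a UMIs in cluster 13, 10.1 in cluster 4 and 5.16 in cluster 9, against 105 in cluster 8. Cd79b gave 34.3 per 1000 in cluster 13, 12.9 in cluster 4 and 2.58 in cluster 9, against 23.4 in cluster 8. Ms4a1 gave 22.1, 4.32 and 1.72 in clusters 13, 4 and 9, against 17.4 in cluster 8. The Cd79b and Ms4a1 values rest on 18 and 6 UMIs in cluster 4 and on 3 and 2 in cluster 9. Over DSS epithelium C1qa gave 0.825 per 1000 against 75.6 in cluster 21, and Ptprc 12.0 against 8.56 in cluster 8 and 8.88 in cluster 21. Ptprc gave 3.60 per 1000 in cluster 4, 2.58 in cluster 9 and 12.2 in cluster 13, from only 5, 3 and 11 UMIs. These values were below those of clusters 8 and 21 in clusters 4 and 9 and above them in cluster 13, on too few UMIs to order the clusters. Over the whole epithelium, with 58 Ptprc UMIs, the value was above that of clusters 8 and 21. In DSS crypts clusters 0 and 11 held 539 Ptprc UMIs beside 41 Cd74 UMIs, against 97 Ptprc UMIs in cluster 8 and 81 in cluster 21. Ptprc UMIs can thus come with almost no Cd74, so this ratio does not give the source of the epithelial Cd74. Of 464 Lyz2 UMIs in DSS epithelium, clusters 4, 9, 13 and 2 held 5, 0, 0 and 1. Without epithelial cells holding a B cell, C1q or Ptprc UMI, the epithelial ratio of DSS to normal for Cd74 was 6.11, and without cluster 13 it was 6.00. How much of the epithelial Cd74 came from other cells was not tested.

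**Figure D5:**
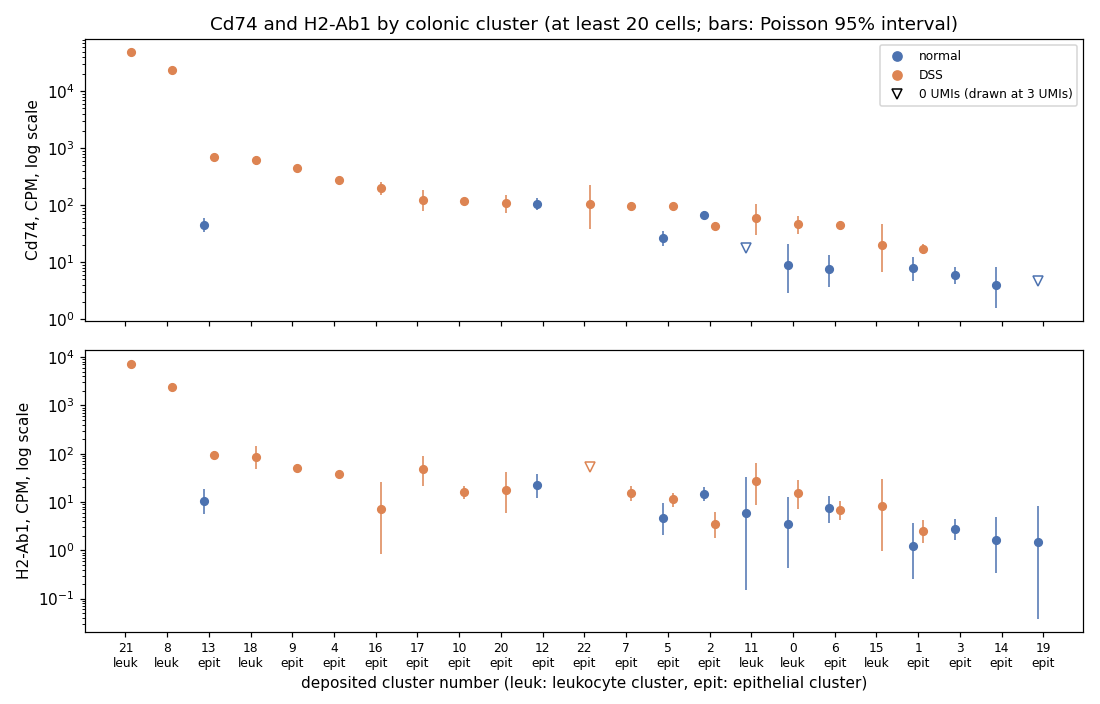
CPM of Cd74 and H2-Ab1 (log axes) in each colonic cluster with at least 20 cells, normal and DSS shown apart, with exact 95% Poisson intervals; open triangles mark 0 UMIs, drawn at the level of 3 UMIs. Clusters 8 and 21 stand at 24007 and 48687 CPM of Cd74, and the DSS epithelial clusters between 17.2 and 690 CPM.

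The members' order of levels also differed between both systems. In DSS epithelium it was Cd74, H2-Ab1, H2-Aa, H2-Eb1, H2-DMb1, H2-DMa and Ciita, where the intervals of H2-Ab1 and H2-Aa and those of H2-DMb1 and H2-DMa overlapped. In Hyper-organoids it was H2-Ab1, H2-DMa, H2-Eb1, H2-DMb1, Cd74, Ciita and H2-Aa by mean CPM (23.5, 6.45, 0.511, 0.322, 0.219, 0.162 and 0.0395). Of neighbours in that order, H2-Eb1 and H2-DMb1 overlapped in their ranges over the 3 libraries, as did H2-DMb1 and Cd74, and Cd74 and Ciita.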

How the data were processed

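The authors aligned and counted reads with Cell Ranger (3.0.0 per the submitters' notes, 3.1.0 per the file headers; mm10) and deposited UMI counts per gene and barcode, not normalized, with a count table and an annotation of the 25204 cells they kept. The methods state at least 1500 genes per cell, but 1375 kept cells had fewer. The main results use the kept cells. Every column of the count table was mapped to a library.

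UMI counts were summed per gene and library and fitted over the 8 organoid libraries with the quasi-likelihood test of edgeR 4.0.16 in R 4.3.3, after filterByExpr and with TMM factors, on all genes. Adjusted p-values are Benjamini-Hochberg over all genes tested, and a call needs an adjusted p under 0.05 and at least 2-fold. CPM are UMIs per 1000000 UMIs of the named cells, with no pseudocount, but log2 ratios between the colonic libraries add 1 CPM to each level. Fold changes in organoids use the TMM factors. Intervals are exact Poisson for levels and Clopper-Pearson for shares, at 95%. The fits were tested on simulated data. Text names every member, each pathway gene called, a few fixed pathway genes, and the 8 genes most like the summed members. Some listed genes are counted in the totals but not reported here by name. The members, lists and rules were chosen with earlier results of these data known.

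ENR- and Hyper-organoid libraries of the same culture series deviated together from their group means (r across 16037 genes 0.192, 0.170 and 0.436), so the series pairs them, and a fit with the series as a block was an alternative. The others were DESeq2 1.42.0, RLE factors, no filter, all barcodes, cells with at least 1500 genes, cells without Ptprc, stem class cells and leaving out each library. Doublets were not called.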

Additional observations from a re-analysis of the deposited data

Results flagged for a closer look

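H2-Ab1 was flagged because its Hyper-organoid effect differed between cell classes by the test of the difference itself: the log2 fold change to ENR-organoids differed by -3.83 between EE and SC cells (adjusted p = 7.61e-04 with edgeR) and by -2.60 between GC and SC cells (adjusted p = 0.00170).

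Cd74 was flagged in colonic crypts because clusters moved in opposite directions between the DSS and the normal library, with a log2 ratio (1 CPM added to each level) of -0.63 in cluster 2 and of 3.90 in cluster 13. That difference was not tested, since each group is 1 library.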

How the results depend on the processing

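Of 352 refitted fold changes of members, 323 kept their direction and side of the threshold, 21 lost and 4 gained the call and 4 changed sign. H2-Ab1 kept its call in 60 of 60 refits of Hyper-organoid contrasts, H2-DMa in 16 of 16 in each contrast and Ciita in 15 of 15, H2-DMb1 in 15 of 16 against ENR- and 14 of 16 against -VE-organoids, Cd74 in 10 of 15 against ENR- and 13 of 15 against -VE-organoids. The changes of sign all concerned -VE- against ENR-organoids: leaving out 1 library each gave log2 fold changes from -0.58 to 1.08 for H2-Ab1, from -0.0055 to 0.14 for H2-Eb1 and from -2.50 to 0.33 for Cd74, where the value of the other sign came without -VE-organoid library 1, and in stem class cells it was -0.048 for H2-DMb1; the cause was not tested. With stem class cells alone, 2 members were called in each Hyper-organoid contrast, of the 3 then tested, and 70 genes between -VE- and ENR-organoids; all barcodes gave 669 there. Leaving out 1 library each gave 3 to 6 members called against -VE-organoids (3 without -VE-organoid library 1), 4 to 6 against ENR-organoids, 1 to 2 within GC cells (1 without ENR-organoid library 2), and 96 to 519 genes between -VE- and ENR-organoids (96 without -VE-organoid library 2). The replicate block changed only Cd74 in TA cells (2.36, adjusted p = 0.0410).

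Shares fell with thinning, as fewer UMIs were kept: to 10000 UMIs, H2-Ab1 gave 0.637% in ENR- and 19.4% in Hyper-organoids and H2-DMa 1.16%, 0.887% and 6.59% in ENR-, -VE- and Hyper-organoids. In normal and DSS epithelium thinned to 5000 UMIs, Cd74 gave 4.26% and 13.8% and H2-Ab1 1.86% and 5.98%; thinned to 2000 UMIs, a depth chosen after seeing the data, 3.48% and 9.86%, and 1.16% and 3.39%. With 1 CPM added to each level, the log2 ratio of DSS to normal epithelium for Cd74, 2.68 over all epithelial cells, was 2.52 without cells holding Ptprc, 3.02 as a mean of per-cell CPM and, in alternatives chosen after seeing the data, 2.53 without cluster 13 and 2.49 as a mean over shared clusters. For H2-Aa, 2.18 over all epithelial cells, it was 2.85 per cell and 2.54 over shared clusters. Over all barcodes the whole colonic libraries gave 3.72 for H2-Aa and 2.65 for H2-Ab1, against 3.93 and 3.20 for kept cells. A Ptprc threshold of 75% left 3 leukocyte clusters of 6. Barcodes that were not kept carry no cluster, so clusters were not run on all barcodes.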

Other observations

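Genes whose log2(CPM + 1) followed the summed CPM of the 7 members most closely over the 8 organoid libraries were Spg21 (r = 0.996), Tesc (0.996), Lmbr1 (0.994), Mfge8 (0.994), Kif3a (0.993), Erich1 (0.993), Ldhb (0.993) and Tifa (0.991), of 7771 genes ranked with a mean of at least 10 CPM. The 3 Hyper-organoid libraries stand apart in this sum, so that r mostly sets them against the other 5 libraries, and the values are a description. Over 22 points of colonic epithelial clusters by library with at least 20 cells, the closest of 7742 genes were Jpt1 (0.817), Tapbpl (0.739), Dirc2 (0.727), Lxn (0.718), Skap2 (0.716), Tbce (0.713), Slc16a3 (0.711) and Nos2 (0.709). Points of the same library share its depth and handling. The 8 genes named in organoids and the 8 named in colonic epithelium had no gene in common.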
